A study of Mus musculus with 6 samples.

Results

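Nnt and the other enzymes that make NADPH were followed in dorsal skin of mice 24 h after a single exposure to 80 mJ/cm2 of UVB. The list holds 10 genes (Nnt, Idh1, Idh2, Me1, Me2, Me3, G6pdx, Pgd, Mthfd2 and Aldh1l2). A gene was measured by the row of the array table that carries its symbol alone, or by the row with the highest mean over the arrays where it has several. By this rule 9 of the 10 were measured, out of 19938 genes with such a row, and G6pdx has no such row in the annotation used here. The list was chosen by the difference of Nnt between the genotypes on these same arrays and by the function of the other genes, with their values known, so the members' values are given as a description without a test.

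The 6 arrays comprise 3 Cbl-b-/- mice (clb-b -/- in the labels), which lack the ubiquitin ligase Cbl-b, and 3 wild type (WT) mice. Both groups were of BL6 background, matched for sex and age, shaved on the back, and irradiated in the same way. Ages are not given in the sources used here, and skin of nonirradiated mice was not analysed here, so no change with UVB was computed. Each value is a normalized expression level on the log2 scale, and a log2 fold change is the Cbl-b-/- mean minus the WT mean. Cblb itself lay between 8.61 and 8.69 in Cbl-b-/- skin and between 9.66 and 9.90 in WT skin, and the groups did not overlap. Array medians ran from 6.30 to 6.34.

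NADPH is the electron donor for glutathione and thioredoxin reductases, for fatty acid and sterol synthesis, and for the NADPH oxidases. In mitochondria it is made by Nnt, the transhydrogenase of the inner membrane that passes hydride from NADH to NADP+ at the expense of the proton gradient, by Idh2 and Me3, and in folate metabolism by Aldh1l2. In the cytosol it is made by the oxidative pentose phosphate pathway (G6pdx and Pgd), Idh1 and Me1. Me2 and Mthfd2 are mitochondrial relatives of these enzymes that work mainly with NAD+. Nnt is also known as the gene that carries a deletion of several exons in the C57BL/6J substrain, while other substrains keep it whole. The substrain of the mice is not given in the sources used here, and a difference of substrain between the groups cannot be told apart from the Cblb genotype in these data.

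Nnt was the member that set the genotypes apart, with higher levels in Cbl-b-/- skin and no overlap. It stood at 8.17, 7.64 and 8.20 in Cbl-b-/- replicates 1, 2 and 3, and at 6.87, 6.71 and 6.79 in WT replicates 1, 2 and 3. The lowest Cbl-b-/- array thus lay 0.77 above the highest WT array, and the WT arrays lay close together, while Cbl-b-/- replicate 2 lay apart from the other Cbl-b-/- arrays. The means were 8.01 ± 0.31 (SD, n = 3) and 6.79 ± 0.08 (SD, n = 3), so that Nnt was 2.32-fold higher, or 1.21 on the log2 scale (standard error 0.16). Of the 35556 rows of the table, 7 had a larger rise, and 74 had a larger difference in either direction. In fits without single arrays, the log2 fold change of Nnt ran from 1.12 to 1.39. The array data hold a single value for the transcript, so they do not show which exons carry the difference.

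**Figure D1:**
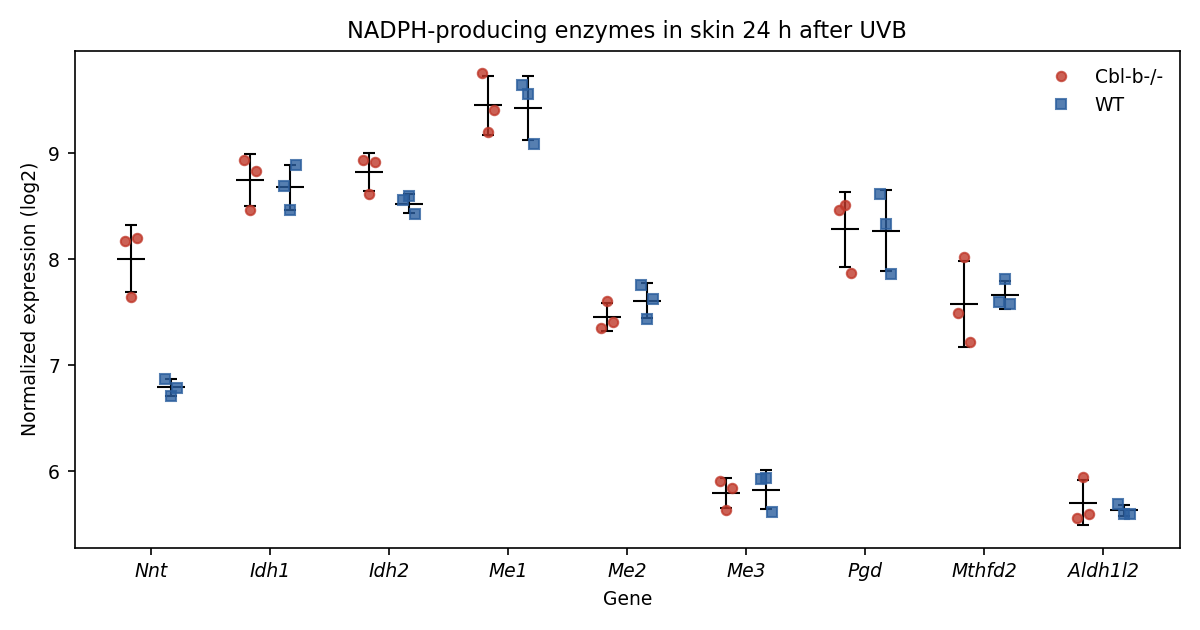
Levels of the 9 measured NADPH-producing enzymes (horizontal axis) on the log2 scale (vertical axis), with red circles for the Cbl-b-/- arrays and blue squares for the WT arrays. Each symbol is 1 mouse, black dashes with whiskers give mean and SD (n = 3), and the genotypes are far apart for Nnt (8.01 against 6.79) and overlap for every other gene except Idh2, where they nearly touch. Levels of different genes are not comparable on this scale.

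No other measured source shifted opposite to Nnt by as much as 1.5-fold, the size used by the study. Of the 8 other measured members, 5 had a log2 fold change above 0 and 3 below 0, from -0.15 (Me2) to 0.30 (Idh2), and 0 of them had all Cbl-b-/- arrays below all WT arrays. Over the whole table, 4.89% of the rows had all Cbl-b-/- arrays below all WT arrays, and 8.66% had them all above. The number of members below 0 depended on single arrays. It rose to 6 when Cbl-b-/- replicate 1 was left out and to 5 when WT replicate 3 was.

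Among the mitochondrial enzymes, Idh2, the NADP-dependent isocitrate dehydrogenase, moved in the same direction as Nnt but by much less. Its levels were 8.94, 8.62 and 8.92 in Cbl-b-/- and 8.56, 8.60 and 8.42 in WT skin. The groups did not overlap, but the gap between Cbl-b-/- replicate 2 and WT replicate 2 was narrow. The means were 8.82 ± 0.18 (SD, n = 3) and 8.53 ± 0.09 (SD, n = 3), 0.30 apart on the log2 scale (standard error 0.11). Left out in turn, no single array took the difference below 0.24. As with Nnt, the lowest of the Cbl-b-/- arrays was replicate 2.

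Me2, the mitochondrial malic enzyme that works mainly with NAD+, had the most negative value of the list. It stood at 7.35, 7.61 and 7.41 in Cbl-b-/- and at 7.76, 7.43 and 7.63 in WT skin, and the groups overlapped. Its log2 fold change was -0.15 (standard error 0.12) and ran from -0.24 to -0.077 when each array was left out. For Me3, the NADP-dependent mitochondrial malic enzyme, the levels were 5.91, 5.64 and 5.84 in Cbl-b-/- against 5.93, 5.94 and 5.61 in WT skin. In each genotype 1 array of Me3 lay below the others, and the log2 fold change was -0.033 (standard error 0.13).

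The folate enzymes of mitochondria varied more between mice of a genotype than between the genotypes. Mthfd2, the dehydrogenase and cyclohydrolase of methylene-tetrahydrofolate, stood at 7.49, 8.02 and 7.22 in Cbl-b-/- and at 7.60, 7.82 and 7.58 in WT skin. Cbl-b-/- skin thus held both the highest and the lowest level of Mthfd2. With a range of 0.80 over the 6 arrays it was the most variable of the members other than Nnt, and its log2 fold change was -0.086 (standard error 0.21). Aldh1l2, which oxidizes formyl-tetrahydrofolate and yields NADPH, was at 5.56, 5.95 and 5.60 in Cbl-b-/- and at 5.69, 5.60 and 5.60 in WT skin. Cbl-b-/- replicate 2 alone lay apart from the rest, and the log2 fold change was 0.074 (standard error 0.12). That array was the highest of the 6 for both folate enzymes. All levels of Aldh1l2, like those of Me3, lay below the array medians (6.30 to 6.34) and may be near background.

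In the cytosol, the 3 measured enzymes differed by less than the spread within a genotype. Idh1, the cytosolic isocitrate dehydrogenase, was at 8.93, 8.47 and 8.83 in Cbl-b-/- and at 8.69, 8.46 and 8.88 in WT skin, which overlapped and differed by 0.067 in their means (standard error 0.16). Me1, the cytosolic malic enzyme that supplies lipid synthesis, was at 9.75, 9.20 and 9.40 in Cbl-b-/- and at 9.64, 9.55 and 9.08 in WT skin. These overlapping groups differed by 0.025 (standard error 0.20), and a further row of Me1 with a lower mean gave -0.068 (standard error 0.21). Pgd, which catalyzes the NADPH-forming step after G6pdx, was at 8.46, 8.51 and 7.87 in Cbl-b-/- and at 8.62, 8.33 and 7.86 in WT skin. Replicate 3 was low in both genotypes, and the log2 fold change of Pgd was 0.011 (standard error 0.25).

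Several of these genes are known targets of NRF2, the transcription factor of the oxidative stress response, which binds the antioxidant response element (ARE). The promoter windows of RefSeq (GRCm38.p6, 250 bases before to 50 after a start) hold 7 of the 10 members in 10 windows, and Nnt, Me2 and Aldh1l2 have no entry. The ARE letters TGACNNNGC, searched on both strands, occur in 3 of the 10 windows, 1 of the 2 windows of Me1, 1 of the 2 of Pgd and that of G6pdx, and in 12.4% of all 32851 windows. The matches are shown because other targets of NRF2 are described below, with the matching letters in capitals, read along the strand of the gene. A match of letters is not evidence of binding.
Me1: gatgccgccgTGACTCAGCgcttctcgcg
G6pdx: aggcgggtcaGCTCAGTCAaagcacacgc
Pgd: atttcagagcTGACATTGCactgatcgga
The Me1 stretch is chr9:86695902-86695930 and spans a start site, the G6pdx stretch is chrX:74428919-74428947 and carries the letters on the reverse strand, and the Pgd stretch is chr4:149166061-149166089 and lies after a further start inside the gene. All 3 genes are on the minus strand. The letters TGATGNAA, the core bound by ATF4 in genes of amino acid stress, were found in 1 of the 10 windows (Me3) and in 3.97% of all windows, and not in that of Mthfd2, a known ATF4 target.

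Levels of cell type markers differed between the skin pieces, and they are given beside the members. In bulk skin, fewer cells of a type and less RNA per cell cannot be told apart. Cbl-b-/- replicate 2 had the lowest mean level of 9 adipocyte markers (8.07, against 8.48 to 9.71 in the other arrays) and the highest of 8 neutrophil markers (9.36, against 7.29 to 8.46). In that array Nnt, Idh1, Idh2, Me1 and Me3 were at their lowest among the Cbl-b-/- mice, and Me2, Pgd, Mthfd2 and Aldh1l2 at their highest. WT replicate 3 had the highest mean of 11 hair follicle markers (9.27, against 5.51 to 7.04) and was the lowest of the 6 arrays for Idh2, Me1, Me3 and Pgd. The adipocyte markers ran from 8.07 to 9.71 in Cbl-b-/- and from 8.48 to 9.20 in WT skin, and those of skeletal muscle from 9.77 to 10.85 and from 10.11 to 10.85. Of the marker lists, only the mean of 6 T cell markers had no overlap between the genotypes. It was 6.54 to 6.66 in Cbl-b-/- and 6.44 to 6.52 in WT skin, so the gap was narrow. Of these T cell markers 0 met the study's thresholds for p and fold change. Their mean lay close to the array medians (6.30 to 6.34), and the lowest marker, Cd3d, had a mean of 4.40. Of all rows, 8.66% had all Cbl-b-/- arrays above all WT arrays, and 4.89% had them all below. Keratinocyte markers were high throughout, with list means from 10.49 to 10.95. Without Cbl-b-/- replicate 2 the log2 fold change of Nnt was 1.39, and without WT replicate 3 it was 1.21. The part of the cell types in the differences of Nnt and of the other members was not tested.

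Position is a property of Nnt that did not enter its choice, so its neighbours were tested. The RefSeq gene table (GRCm38.p6) places 87 other genes within 5 Mb of Nnt on chromosome 13, of which 25 were measured, 13 at lower and 12 at higher coordinates. The measured genes reached unevenly to the sides, from -4947 kb (Ndufs4, towards lower coordinates) to 908 kb (Tcstv3). Of these, Tmem267 was lower in Cbl-b-/- skin, opposite to Nnt. Tmem267, a transmembrane protein gene 78.8 kb away, was at 8.06, 7.85 and 7.93 in Cbl-b-/- and at 8.54, 8.46 and 8.74 in WT skin. The groups did not overlap, and the log2 fold change of -0.64 (standard error 0.11) met the study's thresholds, an unadjusted p under 0.05 with at least a 1.5-fold difference. Adjusted over all rows, it did not pass (adjusted p = 0.441 from limma). It was the 1 gene of the 25 to meet the thresholds, and of all rows 1.22% met them (0.276% as higher, 0.945% as lower). Without WT replicate 3 its log2 fold change was -0.55, under the fold threshold.

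Paip1, an activator of translation that binds poly(A)-binding protein, lies 19.1 kb from Nnt and is the nearest measured gene. The 2 measured genes whose coordinates begin between Paip1 and Tmem267 were 4833420G17Rik and 3110070M22Rik, and the latter overlaps Tmem267. Their log2 fold changes were -0.054 and -0.046. Paip1 and these genes were named after their values were seen. The levels of Paip1 were 7.76, 7.75 and 7.88 in Cbl-b-/- and 8.15, 8.08 and 7.96 in WT skin, with no overlap. The difference was -0.27 on the log2 scale (standard error 0.087, limma's adjusted p = 0.736), which is short of 1.5-fold. On the other side the nearest measured gene is Fgf10, a fibroblast growth factor, at -543 kb (towards lower coordinates), also named after its values were seen. It was at 6.47, 6.91 and 6.70 in Cbl-b-/- and at 6.05, 6.34 and 6.57 in WT skin, where the groups overlapped. Leaving out Tmem267, the log2 fold changes of the measured neighbours ran from -0.30 to 0.37. With limma's unadjusted p under 0.05 taken alone, 3 of the 25 passed (1 higher, 2 lower), and 6.55% of all rows did. The median log2 fold change of the neighbours was -0.023, and that of all rows 0.020.

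**Figure D2:**
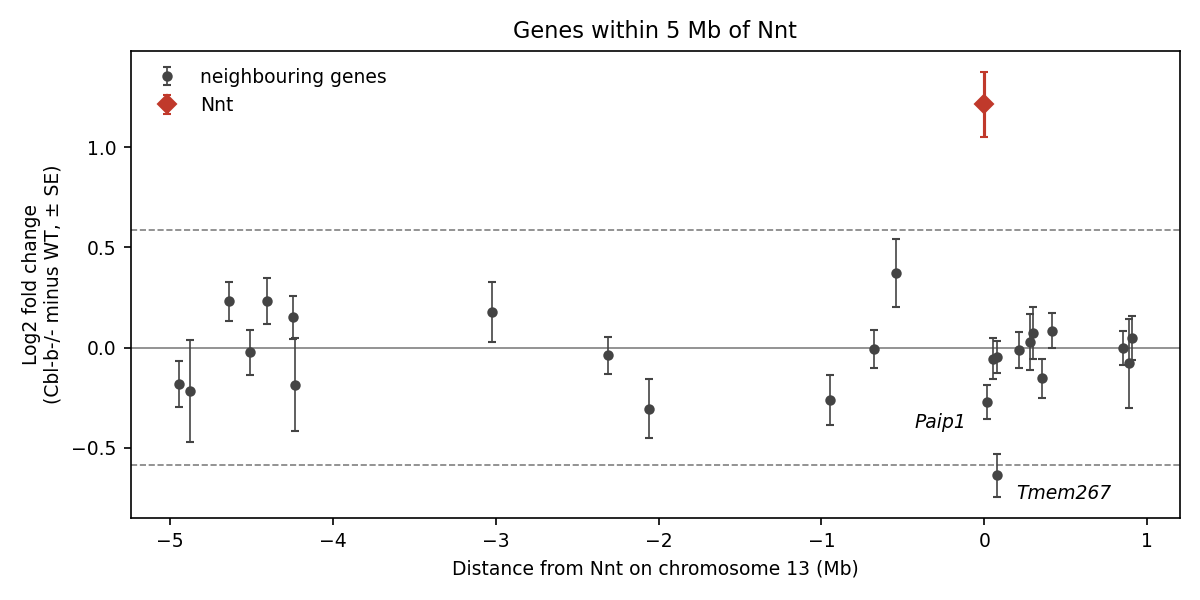
Difference between the genotype means on the log2 scale (vertical axis, positive where Cbl-b-/- is higher, with standard error, 3 mice a group) for the 25 measured genes within 5 Mb of Nnt, by their distance from Nnt on chromosome 13 in Mb (horizontal axis). The diamond is Nnt (1.21) and dashed lines mark 1.5-fold. Tmem267 (-0.64) is the 1 neighbour past a dashed line, on the side opposite to Nnt.

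Genes of the pathways that feed or use NADPH were tested on the same fit. Of 117 measured genes in 9 lists that share some genes, 2 met the study's thresholds, both higher in Cbl-b-/- skin, and 115 did not. This is 1.71% of the genes, beside 1.22% of all rows. With limma's unadjusted p under 0.05 taken alone, 8 passed (5 higher, 3 lower), which is 6.84% beside 6.55% of all rows. After adjustment 0 of them had p under 0.05 in limma, where 0.00281% of all rows did, and in the methods' test 6 passed unadjusted and 0 adjusted. Their median log2 fold change was -0.014.

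The 2 genes were Nox4 and Hmox1. Nox4, an NADPH oxidase that releases hydrogen peroxide, was at 6.28, 7.17 and 7.52 in Cbl-b-/- and at 6.596, 5.95 and 5.75 in WT skin. The groups overlapped, since Cbl-b-/- replicate 1 lay below WT replicate 1, and the difference was 0.89 on the log2 scale (standard error 0.36, limma's adjusted p = 0.749). Nox4 missed the thresholds when any array other than Cbl-b-/- replicate 1 or WT replicate 1 was left out. In these fits Nox4 stayed past 1.5-fold (0.63 to 0.82), but limma's unadjusted p ran from 0.107 to 0.130. It also missed the thresholds after cyclic loess and with the replicate number as a block (limma's unadjusted p = 0.0523 and 0.0962). Hmox1, the heme oxygenase that NRF2 induces, was at 11.09, 10.94 and 10.89 in Cbl-b-/- and at 10.88, 10.17 and 9.98 in WT skin. All Cbl-b-/- arrays were above all WT arrays, but replicate 3 only just above WT replicate 1, and the difference was 0.63 on the log2 scale (standard error 0.23, limma's adjusted p = 0.749). Leaving out any array other than WT replicate 1 made Hmox1 miss the thresholds (0.44 to 0.67), with limma's unadjusted p from 0.0559 to 0.0975. Without Cbl-b-/- replicate 2 or 3 it stayed past 1.5-fold (0.64 and 0.67) and missed on p alone. Without WT replicate 1 Hmox1 met the thresholds at 0.90. Neither gene met the thresholds in the methods' test.

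In the other 7 lists 0 genes met the thresholds. Of 10 measured genes of the pentose phosphate pathway other than the members, the most different was Prps2, a synthetase of phosphoribosyl pyrophosphate, at -0.32 (standard error 0.15). Of 15 enzymes of folate metabolism, 12 had a value below 0 (44.2% of all rows did), with a median of -0.13, and Aldh1l1, the cytosolic relative of Aldh1l2, stood at -0.43 (standard error 0.21). Its levels were 6.46, 6.43 and 6.39 in Cbl-b-/- and 7.32, 6.81 and 6.44 in WT skin, so that WT replicate 3 lay among the Cbl-b-/- arrays. Without WT replicate 3, Aldh1l1 met the thresholds at -0.64. The 1 folate gene with an unadjusted p under 0.05 in limma went the other way, namely Ftcd, a formiminotransferase of histidine breakdown, named after its values were seen. Ftcd was at 6.569, 6.498 and 6.359 in Cbl-b-/- and at 5.914, 5.999 and 6.298 in WT skin, with no overlap and a difference of 0.40 on the log2 scale (standard error 0.12, limma's adjusted p = 0.733), short of 1.5-fold. Of 15 NADH-linked enzymes and carriers of isocitrate and malate, Pcx, the pyruvate carboxylase, was at -0.44 (standard error 0.27) and met the thresholds at -0.69 without WT replicate 3. Of 12 genes of NAD and NADP supply, Nmrk2, a nicotinamide riboside kinase, was at 0.34 (standard error 0.12). All levels of Nmrk2 lay below the array medians (6.30 to 6.34) and may be near background.

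Among 15 genes that remove peroxides with electrons from NADPH, or act beside them, Sod2 had the largest difference. This mitochondrial superoxide dismutase was at 10.60, 10.57 and 10.17 in Cbl-b-/- and at 10.98, 10.97 and 10.79 in WT skin. All Cbl-b-/- arrays were below all WT arrays, a difference of -0.46 on the log2 scale (standard error 0.14, limma's adjusted p = 0.716), which is short of 1.5-fold. Of 13 genes of fatty acid and sterol synthesis, Acaca, the acetyl-CoA carboxylase, was at -0.42 (standard error 0.12), again with no overlap and short of 1.5-fold. Sc5d of the same list, named after its values were seen, went the other way at 0.27 (standard error 0.076). It too had no overlap and was short of 1.5-fold, and the median of the list was 0.047. Among 12 genes of serine synthesis and ATF4 targets, the largest value was that of the cystine transporter Slc7a11, at -0.21 (standard error 0.56). It rested on Cbl-b-/- replicate 3 (6.68, against 7.89 to 8.94 in the other arrays), without which it was 0.46. Of the 15 genes of NRF2 and its targets, 14 did not meet the thresholds, and the median of the 15 was -0.012.

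**Figure D3:**
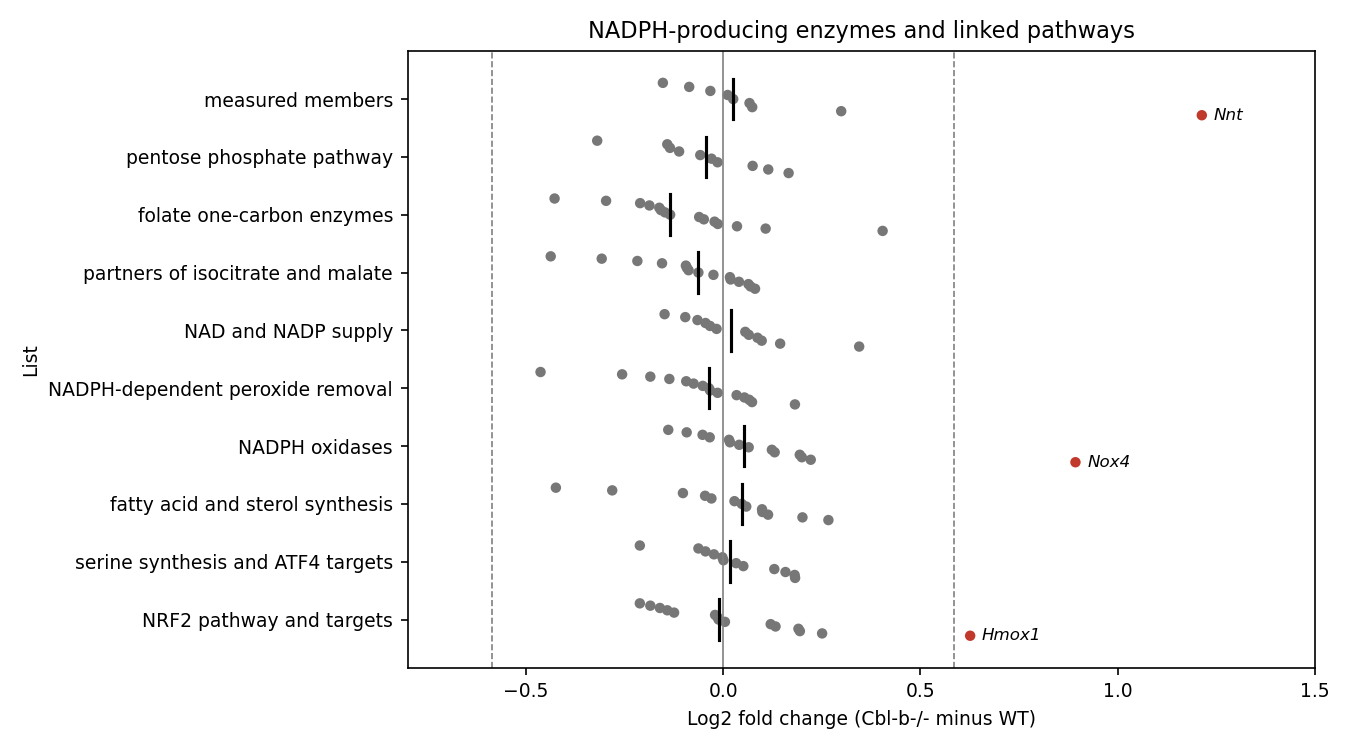
Difference between the genotype means on the log2 scale (horizontal axis, positive where Cbl-b-/- is higher) of the 9 measured members and of the genes of 9 linked lists (vertical axis). Each point is a gene, the black bar is the median of the list, dashed lines mark 1.5-fold, and red points met the study's thresholds (for the members this is a description only). Outside the members, Nox4 (0.89) and Hmox1 (0.63) lie past the lines.

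The genes whose pattern over the 6 arrays was most like that of Nnt were sought among all genes with a row of their own. The 5 with the highest Pearson correlation were Gtf2a1 (r = 0.998), Chst10 (0.996), Zmynd10 (0.994), Gal3st1 (0.992) and Necab2 (0.991), each over 6 arrays. Their log2 fold changes were small, from 0.12 (Zmynd10) to 0.24 (Gal3st1), and from 0.055 (Zmynd10) to 0.19 (Gal3st1) after cyclic loess. Except for Gtf2a1, all levels of these genes lay below the array medians (6.30 to 6.34) and may be near background. The 5 with the lowest were Serpinb6d (r = -0.991), Micos10 (-0.991), Hmgn5 (-0.990), Polr2h (-0.985) and Rpf2 (-0.984). Polr2h has 2 rows. Its log2 fold change was -0.135 in the row used and -0.029 with the mean of its rows. Among these 5 genes, Serpinb6d, a serine protease inhibitor (log2 fold change -0.69), and Hmgn5, a nucleosome-binding protein (-0.76), met the study's thresholds. Of all rows 1.22% met them. After adjustment neither passed (limma's adjusted p = 0.349 and 0.277). All levels of Serpinb6d and Hmgn5 also lay below the array medians and may be near background. Since Nnt itself splits the arrays by genotype, a difference between the genotypes was built into this choice. Among the members, Idh2 was the most like Nnt (r = 0.906) and Me2 the least (r = -0.607). These values describe the 6 arrays, which fall into the 2 genotypes, and were picked as extremes of the table.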

How the data were processed

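RNA from back skin was profiled with the Mouse Gene 1.0 ST Array of Affymetrix, with 3 mice a genotype as biological replicates. The authors deposited log2 values made by robust multichip average (background correction, quantile normalization and median polish) in Partek Genomics Suite (6.5 in the submitters' processing notes). Its 35556 rows include 21789 with 1 gene symbol, 1621 with several and 12146 with none, and symbols were updated through gene identifiers to RefSeq. Detection calls were not used, so low levels may be background. Genotypes, taken from the labels, were compared with limma 3.58.1 (R 4.3.3) on the deposited values, checked on simulated data, with p-values adjusted by Benjamini and Hochberg over all rows. The study's thresholds were p under 0.05, read as unadjusted, and 1.5-fold. The methods' test was one-way ANOVA per row. Precision is limited by the 6 arrays. With 3 against 3, the smallest two-sided p of an exact permutation test is 0.1.

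The members and lists were chosen with earlier results of these data known. Named were all members, in each list the genes that met the thresholds or else the largest difference, near Nnt those that met them, and the 5 genes most and least like Nnt. The alternatives were the methods' test, cyclic loess, a filter on dim rows, the mean of a gene's rows, a replicate block, and leaving out each array.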

Additional observations from a re-analysis of the deposited data

How the results depend on the processing

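The log2 fold change of Nnt stayed between 1.12 and 1.39 when each array was left out, and moved by less than the spread between replicates under the alternatives run for it. The number of other members below 0 (3) ran from 2 to 6 without single arrays. Rows that met the study's thresholds numbered 434, 267 in the methods' test, 176 among rows above the median, and 428 to 790 without single arrays, the last without Cbl-b-/- replicate 2. The paper counts genes rather than rows and reports fewer than the methods' test gave here, so its count was not reproduced. In the pathway lists the count of 2 fell to 0 in the methods' test and to 1 after cyclic loess, where Nox4 missed the thresholds, and ran from 0 to 2 without single arrays. Near Nnt the count of 1 ran from 0 to 1. Slc7a11 (-0.21) ran from -0.67 without Cbl-b-/- replicate 2 to a reversed 0.46 without Cbl-b-/- replicate 3. The replicate numbers of the labels were not shown to pair the mice. The correlations of same-numbered arrays' deviations were 0.233, 0.092 and 0.247. Each Cbl-b-/- array correlated best with the WT array of its own number. Of the WT arrays, only replicate 2 did not, with 0.232 for Cbl-b-/- replicate 1. With the replicate block the pathway count was 1 (Nox4 missed the thresholds) and no other count changed by over 1.5 times. The cause of these changes was not tested.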
